A study of Mus musculus with 359 samples.

Results

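The 10 genes described here encode the activin subunits and the binding protein, inhibitory Smads and Id targets of activin and BMP signalling: Inhba, Inhbb, Inhbc, Inhbe, Fst, Id1, Id2, Id3, Smad6 and Smad7. They were chosen by name, as 10 of the 24421 genes in each liver table, because Fst and Id1 stood out after 28 days of 4-methylimidazole (4-MEI). The day 28 dose contrasts of liver were therefore part of the choice, and their values are given below as a description with no test. The choice covered liver levels and fold changes at every dose and day, and named only day 28 as where Fst and Id1 stood out. As the members were chosen with earlier results of these data known, the p-values of other days may not be independent of the choice. The day 28 vehicle groups of liver were the reference of the day 28 dose contrasts, so their values were part of the choice.

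4-MEI is a nitrogen heterocycle formed when foods are heated. RNA of 2 organs from B6C3F1 mice of both sexes was sequenced, in 180 liver and 179 lung libraries that fall into 60 groups of 6, except for 1 lung group of day 5 with 5. At day 2 the mice received vehicle or 4-MEI by gavage at 50, 100, 200 or 300 mg/kg-d, and at days 5 and 28 they received 0, 150, 300, 1250 or 2500 ppm in feed, so that day and route cannot be told apart. All groups shared the strain, and the age of the mice is not given in the sources used here. Each library carries its own number in its title, and p-values measure only the spread between these libraries.

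Activins are dimers of inhibin beta subunits, each made by its own gene, and they signal through Acvr2a or Acvr2b and a partner receptor to Smad2 and Smad3. Follistatin, the product of Fst, is secreted in large part by the liver and holds activin away from its receptors. BMPs signal through Smad1, Smad5 and Smad9 to switch on the Id genes, whose products bind helix-loop-helix factors and keep them off DNA, and to switch on Smad6 and Smad7, which shut the pathway down again.

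The members lie on 8 chromosomes of GRCm38 (mm10). Fst is at chr13:114452290-114458951 on the minus strand, Id1 at chr2:152736251-152737410 on the plus strand, and Inhbb at chr1:119415465-119422248 on the minus strand. The 250 bases before the starts of Inhbb and Inhba are shown because these subunit genes differed in their day 2 values below; the pair was picked after those values were seen. Both are from RefSeq (GRCm38.p6), read 5′ to 3′ on the strand of the gene, with capitals marking the GC box GGGCGG or its complement. The Inhbb stretch is chr1:119422249-119422498 (minus strand) and the Inhba stretch is chr13:16011601-16011850 (plus strand).
Inhbb: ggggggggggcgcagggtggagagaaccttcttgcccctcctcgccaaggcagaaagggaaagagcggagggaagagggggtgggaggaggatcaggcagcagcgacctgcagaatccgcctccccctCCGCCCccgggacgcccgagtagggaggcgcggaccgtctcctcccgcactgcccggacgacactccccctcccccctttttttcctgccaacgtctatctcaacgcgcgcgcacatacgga
Inhba: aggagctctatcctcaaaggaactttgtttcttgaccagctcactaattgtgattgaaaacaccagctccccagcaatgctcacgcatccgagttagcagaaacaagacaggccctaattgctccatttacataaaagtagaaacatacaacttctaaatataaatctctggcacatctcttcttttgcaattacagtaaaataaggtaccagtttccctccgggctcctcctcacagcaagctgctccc
The Inhbb stretch holds 1 GC box and the Inhba stretch holds none. Of 32851 promoters in the RefSeq table, 32.7% hold a GC box in the same window on either strand. Searched the same way on both strands, TGACGTCA (1.55% of promoters), GGCGCC (9.59%), GTCTAGAC (0.167%), TTCNNNGAA (7.02%), CACGTG (6.02%) and TGACG (17.8%), which is contained in TGACGTCA, gave no match in either stretch. Among the 7 members with an entry, Id2 had 1 GGCGCC and 1 GC box, Id3 had 1 TGACG and 2 GC boxes, and Smad6 had 4 GC boxes. Fst, Id1 and Smad7 have no entry in that table.

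Library totals ran from 8457034 to 22527309 counts in liver and from 7253910 to 21473135 in lung. At day 28 the titles and the sample characteristics named different doses in 96 of 120 libraries and different sexes in 48; groups were taken from the titles, and the Y-linked genes matched the sex of the title in all 359 libraries. The dose in the titles was not checked by any gene, and every day 28 dose value rests on it. Xist did not match in 1 library, number 78 (lung, day 2, females, 300 mg/kg-d), and results that involve it are given with and without it. Liver library 64 (day 2, females, 200 mg/kg-d) stood far from the other 5 of its group, and is treated the same way. In counts per 1000000 of the scaled library (CPM), the summed hepatocyte markers ran from 113644 to 207295 in liver libraries at the highest doses, and the lung markers Sftpc and Sftpb had no count in any day 2 liver library.

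The 10 genes covered a wide range of levels in vehicle liver. Per kilobase of exon, Inhbc and Id2 were the most abundant at day 2, at 48.4 ± 7.94 and 36.6 ± 7.54 CPM per kb (SD, n = 12). Id3 followed at 18.4 ± 8.44, Inhbe at 9.2 ± 2.9 and Id1 at 3.37 ± 1.44 CPM per kb. Smad7 (1.92 ± 0.758) and Smad6 (1.81 ± 0.23) did not differ beyond their spread, nor did Inhba (0.547 ± 0.276), Fst (0.357 ± 0.178) and Inhbb (0.247 ± 0.124), which were the lowest. At days 5 and 28 Id2 lay above Inhbc, at 66 ± 17.3 against 38.6 ± 6.34 and at 50.4 ± 12.7 against 36.7 ± 6.16 CPM per kb. The rest kept the same order at both days. In lung the order was another one: Id3 (96.1 ± 9.14), Smad6 (94.1 ± 10.4) and Id1 (78 ± 9.98) led at day 2, Inhbb was at 4.56 ± 0.463 and Fst at 1.65 ± 0.639 CPM per kb. Inhbc and Inhbe, the subunit genes made mainly by hepatocytes, reached at most 0.213 and 0.0531 CPM per kb in a vehicle lung library of that day, whose summed hepatocyte markers ran from 1.81 to 328.6 CPM in females.

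**Figure D1:**
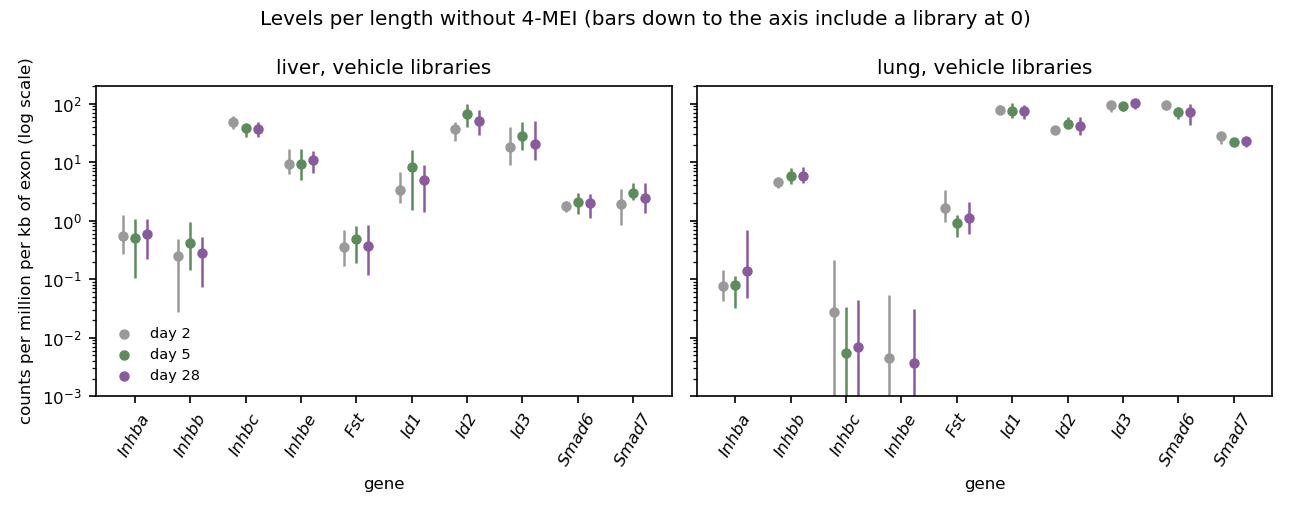
Levels of the 10 genes in vehicle libraries, in CPM per kilobase of exon on a log axis, in liver and lung at days 2, 5 and 28. Points are means over the vehicle libraries of both sexes and bars run from the lowest to the highest library; Inhbc and Inhbe are high in liver and near 0 in lung.

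The low level of Fst and Inhbb sets the precision. In vehicle liver libraries of day 2, Fst had 10 to 47 counts, Inhbb 1 to 31 counts and Inhbc 765 to 1744 counts. For Fst and Inhbb a library's value therefore carries a large counting error, while that of Inhbc, Inhbe, Id2 and Id3 does not.

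The activin ligands separated at day 2. Inhbb, the beta B subunit, rose in females at 300 mg/kg-d. Vehicle females had 1.13, 0.647, 2.10, 1.30, 0.736 and 0.962 CPM, and females at 300 mg/kg-d had 11.1, 9.0, 6.34, 3.68, 8.04 and 4.06 CPM. Every treated library lay above every vehicle library. The means were 1.14 ± 0.525 and 7.04 ± 2.9 CPM (SD, n = 6 each), and the log2 fold change was 2.60 (SE 0.52, adjusted p 0.00017, edgeR's quasi-likelihood test with Benjamini-Hochberg adjustment over 12627 genes). Groups failed to overlap in 14.7% of all genes in this contrast. Leaving out any 1 of the 12 libraries gave a log2 fold change between 2.41 and 2.86, with adjusted p (same test) from 0.000147 to 0.000882. As these are bulk samples, fewer cells of a type and less RNA per cell cannot be told apart, here and below.

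In males the Inhbb values at 300 mg/kg-d were 3.28, 5.64, 2.80, 1.11, 1.45 and 0.852 CPM, against 1.58, 0.116, 1.49, 0.814, 0.575 and 1.17 CPM in vehicle males. The 3 highest treated libraries lay above all vehicle libraries and the other 3 fell among them. The log2 fold change was 1.33 (SE 0.58) and did not pass the test (adjusted p 0.11, edgeR's quasi-likelihood test with Benjamini-Hochberg adjustment); without library 66, the highest, it was 0.90. The difference between the female and male fold changes of Inhbb was 1.27 (SE 0.80, adjusted p 1, same test), so a larger response in females was not shown.

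**Figure D2:**
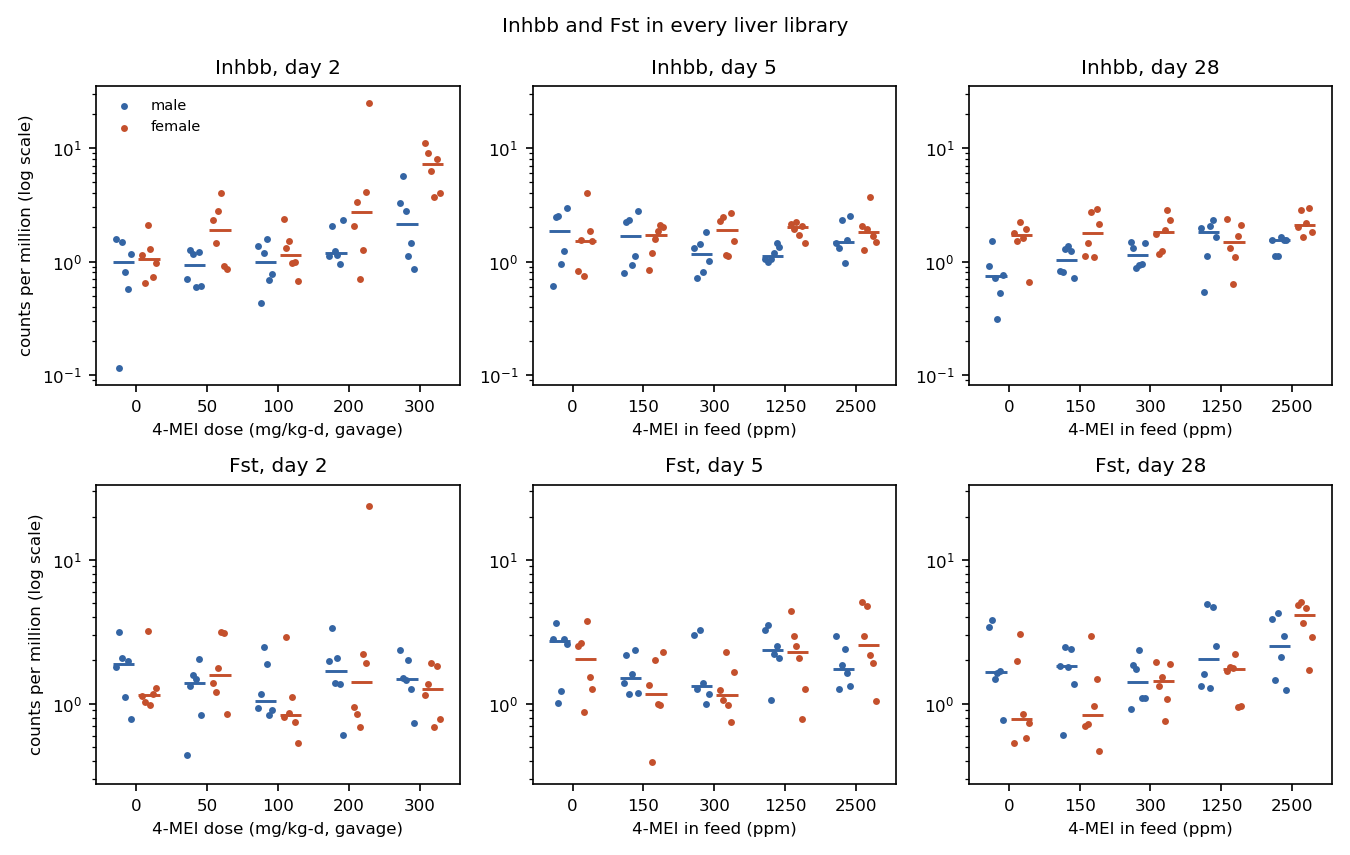
Inhbb (upper row) and Fst (lower row) in every liver library at days 2, 5 and 28, in CPM on a log axis, by dose and sex. Points are libraries and bars are medians of 6; Inhbb is separated from vehicle in females at 300 mg/kg-d on day 2, and Fst is high in 1 female library at 200 mg/kg-d on day 2 and in most female libraries at 2500 ppm on day 28.

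The other subunits did not follow Inhbb. In females at 300 mg/kg-d the log2 fold change was 0.31 (SE 0.32) for Inhba, the beta A subunit, -0.03 (SE 0.20) for Inhbc and 0.32 (SE 0.36) for Inhbe, and none passed the test. In males the same values were 0.11 (SE 0.34), -0.01 (SE 0.20) and 0.26 (SE 0.36). Inhba levels of treated females ran from 2.96 to 6.27 CPM (median 4.49) against 2.22 to 5.31 CPM (median 3.59) in vehicle females, so the groups overlapped almost fully. Inhbc levels of treated females ran from 58.6 to 104.1 CPM against 67.5 to 112.9 CPM.

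For Fst, the antagonist, no rise was shown at 300 mg/kg-d on day 2. Vehicle females ran from 0.987 to 3.18 CPM (median 1.15) and females at 300 mg/kg-d from 0.691 to 1.91 CPM (median 1.26). The log2 fold change was -0.20 in females (SE 0.58, adjusted p 0.824) and -0.20 in males (SE 0.57, adjusted p 0.843; edgeR's quasi-likelihood test with Benjamini-Hochberg adjustment). Both values lay within 1 standard error of 0. Without vehicle library 11, which had 3.18 CPM, the female value was 0.18, so its sign rested on that library.

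Among the Id genes, Id1 and Id2 rose in females at 300 mg/kg-d on day 2, by less than Inhbb. Id2 ran from 56.3 to 110 CPM (median 79.1) in vehicle females and from 86.1 to 178 CPM (median 137.96) at 300 mg/kg-d, with 4 of 6 treated libraries above all vehicle libraries. Its log2 fold change was 0.69 (SE 0.23, adjusted p 0.0168, edgeR's quasi-likelihood test with Benjamini-Hochberg adjustment). The call was lost without vehicle library 10 (0.59) or without treated library 73 (0.58). Id1 ran from 2.46 to 5.61 CPM (median 3.19) in vehicle females and from 3.99 to 12.8 CPM (median 4.75) at 300 mg/kg-d, and 2 of 6 treated libraries lay above all vehicle libraries. Its log2 fold change was 0.83 (SE 0.31, adjusted p 0.0347, same test). This call was lost in 7 of 12 fits that left out 1 library, namely vehicle 9, 10, 11, 14 or 15 and treated 73 or 74; without treated library 74, which had 12.8 CPM, the log2 fold change was 0.47. Id3 (0.59, SE 0.33) did not pass. At 200 mg/kg-d Id1 in females had a log2 fold change of 0.84 (SE 0.31, adjusted p 0.0551, same test; DESeq2 adjusted p 0.0366), and 0.79 without library 64, described below.

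In males at 300 mg/kg-d Id1 was -0.59 (SE 0.32), with 1.24 to 5.58 CPM against 2.34 to 7.98 CPM in vehicle males, and did not pass the test. The difference in the Id1 fold change between the sexes was 1.42 (SE 0.44, unadjusted p 0.00237, adjusted p 0.765, edgeR's quasi-likelihood test with Benjamini-Hochberg adjustment over all genes). Over all genes, 1 (0.00792%) passed that test of the sex difference. Id2 (0.35, SE 0.23) and Id3 (0.15, SE 0.33) did not pass in males either.

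The inhibitory Smads moved little at day 2. In females at 300 mg/kg-d Smad6 was 0.33 (SE 0.16, adjusted p 0.0998) and Smad7 was 0.39 (SE 0.28, adjusted p 0.294; edgeR's quasi-likelihood test with Benjamini-Hochberg adjustment). Of the 10 members, 3 passed in females, all higher, beside 30% of genes in either direction and 15.3% higher, so the share of members called was near that of all genes. The count was 1 to 4 when single libraries were left out, with 1 without vehicle library 10 or treated library 73, and the members' median log2 fold change was 0.36 against -0.02 over all genes. In males 0 of 10 passed, beside 15.1% of genes; 1 of 10, Inhbb, had an unadjusted p under 0.05, beside 30.4% of genes, and DESeq2 also called none.

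**Figure D3:**
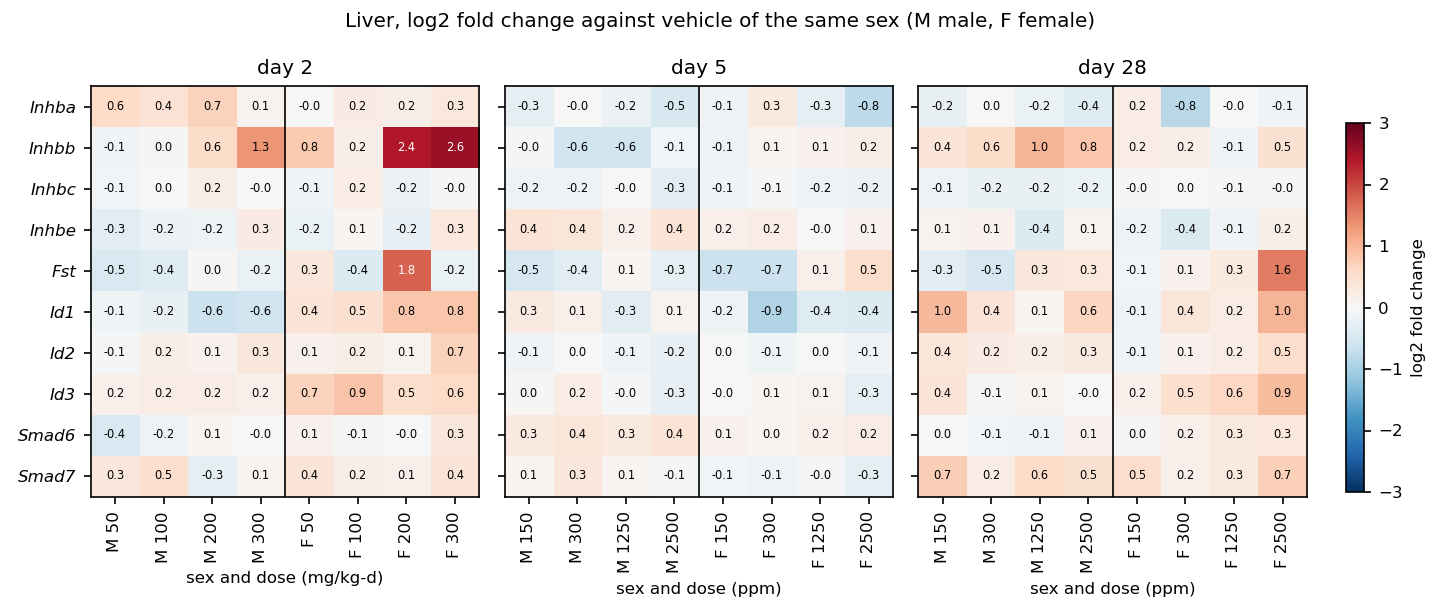
Fitted log2 fold change of each member in liver against the vehicle group of the same sex, for each sex (M, F) and dose at days 2, 5 and 28. Red cells are higher and blue cells lower than vehicle; the day 2 columns hold the largest Inhbb values, the day 5 columns are pale, and the last day 28 column holds the Fst and Id1 values that led to the choice, beside Id3 and Smad7.

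Below 200 mg/kg-d at day 2, the largest log2 fold change was that of Id3 in females at 100 mg/kg-d. In the 50 mg/kg-d groups the log2 fold changes of the 10 genes ran from -0.20 (Inhbe) to 0.79 (Inhbb) in females and from -0.46 (Fst) to 0.59 (Inhba) in males. At 100 mg/kg-d they ran from -0.42 (Fst) to 0.86 (Id3) in females and from -0.38 (Fst) to 0.51 (Smad7) in males. Inhbb was 2.06 ± 1.23 CPM at 50 mg/kg-d and 1.30 ± 0.595 CPM at 100 mg/kg-d in females (SD, n = 6 each), so its level did not climb stepwise over the doses. Id3 in females at 100 mg/kg-d lay between 41.3 and 70.4 CPM, above all 6 vehicle females (16.3 to 36.6 CPM), yet did not pass (SE 0.33, adjusted p 0.37, edgeR's quasi-likelihood test with Benjamini-Hochberg adjustment); groups failed to overlap in 1.47% of genes there. At 300 mg/kg-d Id3 ran from 18.96 to 70.3 CPM and overlapped with vehicle again.

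Females at 200 mg/kg-d on day 2 had 2 called members, beside 16.8% of genes, and both calls rested on library 64, as did most of that share: without the library 4.31% of genes were called. Fst was 23.7 CPM in library 64 and 0.695 to 2.21 CPM in the other 5, and Inhbb was 25.2 CPM against 0.695 to 4.1 CPM. With all 6 libraries the log2 fold changes were 1.77 for Fst (SE 0.53, adjusted p 0.0186) and 2.40 for Inhbb (SE 0.53, adjusted p 0.00229; edgeR's quasi-likelihood test with Benjamini-Hochberg adjustment). Without library 64 they were -0.16 and 0.99 and no longer passed the same test (adjusted p 0.877 and 0.208).

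Library 64 lay outside the range of the other 5 in 8 of the 10 genes. Inhbe was 0.272 CPM there (3 counts) against 38.5 to 64.1 CPM in the other 5 libraries, Inhba 0.363 CPM (4 counts) against 2.68 to 7.54 CPM, and Inhbc 15.7 against 76.9 to 104.4 CPM. These 3 activin subunits were thus low in the library in which Inhbb and Fst were high. Smad7 (5.89 against 9.21 to 13.5 CPM), Smad6 (4.53 against 5.83 to 7.04 CPM) and Id2 (42.4 against 51.9 to 134.8 CPM) also lay below the other 5, while Id1 and Id3 lay within their range. The lung library with the same number was likewise the highest of its group of 6 in Fst (24.7 against 3.73 to 15.4 CPM), Inhbb (43.7 against 18.6 to 23.1 CPM) and Id1 (149.3 against 68.8 to 99.3 CPM). It was the lowest in Inhba, at 0.144 CPM (2 counts) against 0.550 to 0.839 CPM, in Id2, at 55.8 against 78.1 to 89.8 CPM, and in Smad6, at 244 against 268 to 313 CPM. Both tissues of number 64 therefore departed in the same direction in Fst, Inhba, Inhbb, Id2 and Smad6.

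Liver library 64 also stood apart in genes that respond to fasting. Igfbp1, an insulin-like growth factor binding protein, was 5584 CPM against 16.3 to 100.4 CPM in the other 5, and Ppargc1a, a coactivator of gluconeogenic genes, was 130 against 9.67 to 14.9 CPM. The gluconeogenic genes G6pc (1061 against 218 to 447 CPM) and Pck1 (6036 against 1596 to 3814 CPM) were above the others. Fgf21, a hormone of the fasted liver, had no count, against 1.52 to 7.62 CPM in the others. Of the clock genes, Arntl was 39.7 against 2.37 to 13.3 CPM and Per3 10.2 against 42.1 to 77.9 CPM. The part of these differences in the Fst and Inhbb values of that library was not tested.

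Of the other genes of the pathway, from lists chosen by name, some rose in both sexes at 300 mg/kg-d on day 2 and most did not pass. In females 6 of 14 receptors, 6 of 13 Smads and their regulators, 4 of 13 further ligands and 1 of 8 antagonists were higher and none of these was lower; 2 of 10 targets were higher and 1 lower, and of 3 partners of Id proteins 1 was higher and 1 lower. In males 4 of 14 receptors, 4 of 13 Smads and regulators, 3 of 13 ligands and 1 of 3 partners were higher, 1 of 10 targets was lower, and 0 of 8 antagonists changed. The background was 15.3% of genes higher in females and 8.64% in males.

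The genes with the smallest adjusted p were receptors and a ubiquitin ligase. Smurf2, a ubiquitin ligase that removes Smads and receptors, rose by 0.68 (SE 0.10) in females and 0.57 (SE 0.10) in males on the log2 scale. Bmpr2, the type II BMP receptor, rose from 35.1 ± 2.1 to 58.6 ± 5.97 CPM in females (log2 fold change 0.74, SE 0.12) and from 36.7 ± 4.09 to 55.8 ± 11.5 CPM in males (0.60, SE 0.12; SD, n = 6 each). All 6 treated libraries of each sex lay above all vehicle libraries for Bmpr2, beside 14.7% of genes that failed to overlap in females and 5.05% in males. Acvr2a, a type II activin receptor, rose by 0.54 (SE 0.10) in females and 0.42 (SE 0.10) in males, Bmpr1a, a type I BMP receptor, by 0.38 (SE 0.07) and 0.39 (SE 0.07), and the BMP co-receptor Neo1 by 0.35 (SE 0.09) and 0.43 (SE 0.09). Among the targets, Id4, the remaining Id gene, rose from 0.479 ± 0.198 to 1.12 ± 0.442 CPM in females (1.22, SE 0.31) and Fn1, which encodes fibronectin, rose by 0.41 (SE 0.13), while Tsc22d1 fell by 0.98 (SE 0.31); in males Hamp2, a hepcidin gene, fell by 1.08 (SE 0.37). These 4 targets are named because their count was small, after their values were seen. Hamp, the hepcidin gene controlled by BMP signals, was 0.94 (SE 0.49) in females and -0.54 (SE 0.49) in males and did not pass.

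At 300 mg/kg-d on day 2, markers of endothelial cells and of hepatocytes were both among those called higher in females. The share of all genes called higher was 15.3% in females and 8.64% in males. In females at 300 mg/kg-d 5 of 8 sinusoidal endothelium markers were higher (Fcgr2b, Lyve1, Stab1, Stab2 and Bmp2), with a summed level of 329 to 381 CPM against 251 to 317 CPM in vehicle females. Of 6 vascular endothelium markers, 3 were higher (Pecam1, Tek and Kdr; 146.99 to 171 against 110 to 137.8 CPM). Hepatocyte markers were 5 of 8 higher and 1 lower, and 0 of 7 clock genes passed. Some markers of 3 other cell types were lower, in 2 of 5 for cholangiocytes (Krt7 and Spp1), 2 of 7 for Kupffer cells (Timd4 and Cd5l) and 2 of 8 for stellate cells (Lrat and Col3a1). In males at 300 mg/kg-d 2 of 8 sinusoidal markers (Fcgr2b and Bmp2) and the same 3 of 6 vascular markers were higher, as were 1 of 8 stellate cell markers (Reln) and 1 of 8 hepatocyte markers (Apob), while 1 of 7 Kupffer cell markers (Cd5l) was lower. Bmp2, a ligand made by sinusoidal endothelium, stands in both the ligand and the sinusoidal list. Their part in the values of the members and of the pathway genes was not tested.

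After 5 days in feed none of the 10 genes passed the test at the highest dose. At 2500 ppm 0 of 10 passed in males, beside 0.405% of genes, and 0 of 10 in females, beside 0.0545%. At an unadjusted p under 0.05 the count was 2 of 10 in males, beside 8.80% of genes, and 0 of 10 in females, beside 5.10%; DESeq2 called none in either sex. The 2 in males were Smad6 (0.42, SE 0.17) and Inhbc (-0.32, SE 0.13). Inhbb ran from 1.27 to 3.72 CPM in females at 2500 ppm and from 0.746 to 4.00 CPM in vehicle females, a log2 fold change of 0.21 (SE 0.31). Fst ran from 1.04 to 5.12 CPM (median 2.57) against 0.881 to 3.74 CPM (median 2.04) in vehicle females, with a log2 fold change of 0.52 (SE 0.36, adjusted p 1, edgeR's quasi-likelihood test with Benjamini-Hochberg adjustment). Id1 in females was lower in value at 300 ppm (4.27 to 10.6 CPM against 4.88 to 18.8 CPM; -0.90) but did not pass. No pathway gene of the lists passed at 2500 ppm on day 5.

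At day 28 the values that led to the choice lay in females at 2500 ppm. Fst was 0.534, 1.97, 3.03, 0.843, 0.574 and 0.735 CPM in vehicle females and 4.85, 5.09, 3.62, 4.60, 1.73 and 2.90 CPM at 2500 ppm. In 4 of 6 treated libraries it lay above every vehicle library, and the means were 1.28 ± 1.01 and 3.80 ± 1.31 CPM (SD, n = 6 each; log2 fold change 1.56, SE 0.40). At lower doses it overlapped with vehicle, with 0.472 to 2.95 CPM at 150 ppm, 0.759 to 1.95 CPM at 300 ppm and 0.95 to 2.21 CPM at 1250 ppm. In males Fst ran from 1.25 to 4.30 CPM at 2500 ppm against 0.766 to 3.80 CPM in vehicle males (0.33, SE 0.39). Vehicle males thus reached Fst levels that vehicle females did not, and the sexes overlapped at 2500 ppm.

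Id1, the other gene named in the choice, was 4.27, 7.42, 6.87, 10.3, 7.32 and 8.16 CPM in vehicle females of day 28 and 17.8, 18.4, 15.2, 10.2, 13.4 and 15.5 CPM at 2500 ppm. All treated libraries but 1 lay above every vehicle library (7.40 ± 1.97 against 15.1 ± 2.99 CPM; log2 fold change 1.03, SE 0.31). In males Id1 ran from 3.11 to 10 CPM (median 6.95) against 1.66 to 8.55 CPM (median 3.92), a log2 fold change of 0.64 (SE 0.35). The largest male Id1 median was not at 2500 ppm but at 150 ppm (8.32 CPM, range 4.43 to 12.4), so the male values did not follow the dose.

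The other Id genes and Smad7 lay above vehicle in the same female libraries. Smad7 ran from 7.75 to 14.03 CPM in vehicle females and from 15.5 to 21.9 CPM at 2500 ppm, with no overlap (0.72, SE 0.22); groups failed to overlap in 1.59% of all genes in this contrast. Id3 ran from 21.1 to 48.9 CPM and from 41.99 to 75.2 CPM (0.94, SE 0.31), where the highest vehicle library, 170, overlapped with 3 treated ones. Id2 was 114.7 ± 17.8 against 164 ± 27.5 CPM (0.52, SE 0.21), and Smad6 was 0.32 (SE 0.14). For the subunits the log2 fold changes were -0.10 (Inhba), 0.46 (Inhbb), -0.04 (Inhbc) and 0.19 (Inhbe). In males Inhbb had the largest log2 fold change of the 10, at 0.84 (SE 0.33), with 1.12 to 1.65 CPM against 0.312 to 1.504 CPM.

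By the threshold used elsewhere, 1 of 10 members (Fst) passed in day 28 females at 2500 ppm, beside 1.16% of genes, and 0 of 10 in males, beside 0.0775%; nothing is read from these counts, since the contrast chose the members. The female count was 0 when any of 8 libraries was left out (vehicle 170, 174, 175 or 176, or treated 233, 234, 235 or 236), and the log2 fold change of Fst then lay between 1.39 and 1.57. The median log2 fold change of the members was 0.49 in females and 0.19 in males, against 0.00 and -0.01 over all genes. Of the pathway lists, Dcn, a proteoglycan that binds TGF-beta, was the only gene past the threshold in females and none was in males. Summed stellate cell markers, which include Dcn, were 406 to 511 CPM at 2500 ppm against 299 to 406 CPM in vehicle females, with 1 of 8 called. Summed Kupffer cell markers were 209 to 282 against 264 to 344 CPM and summed clock genes 191 to 549 against 354 to 586 CPM, with none called, and their part in the Fst and Id values was not tested.

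**Figure D4:**
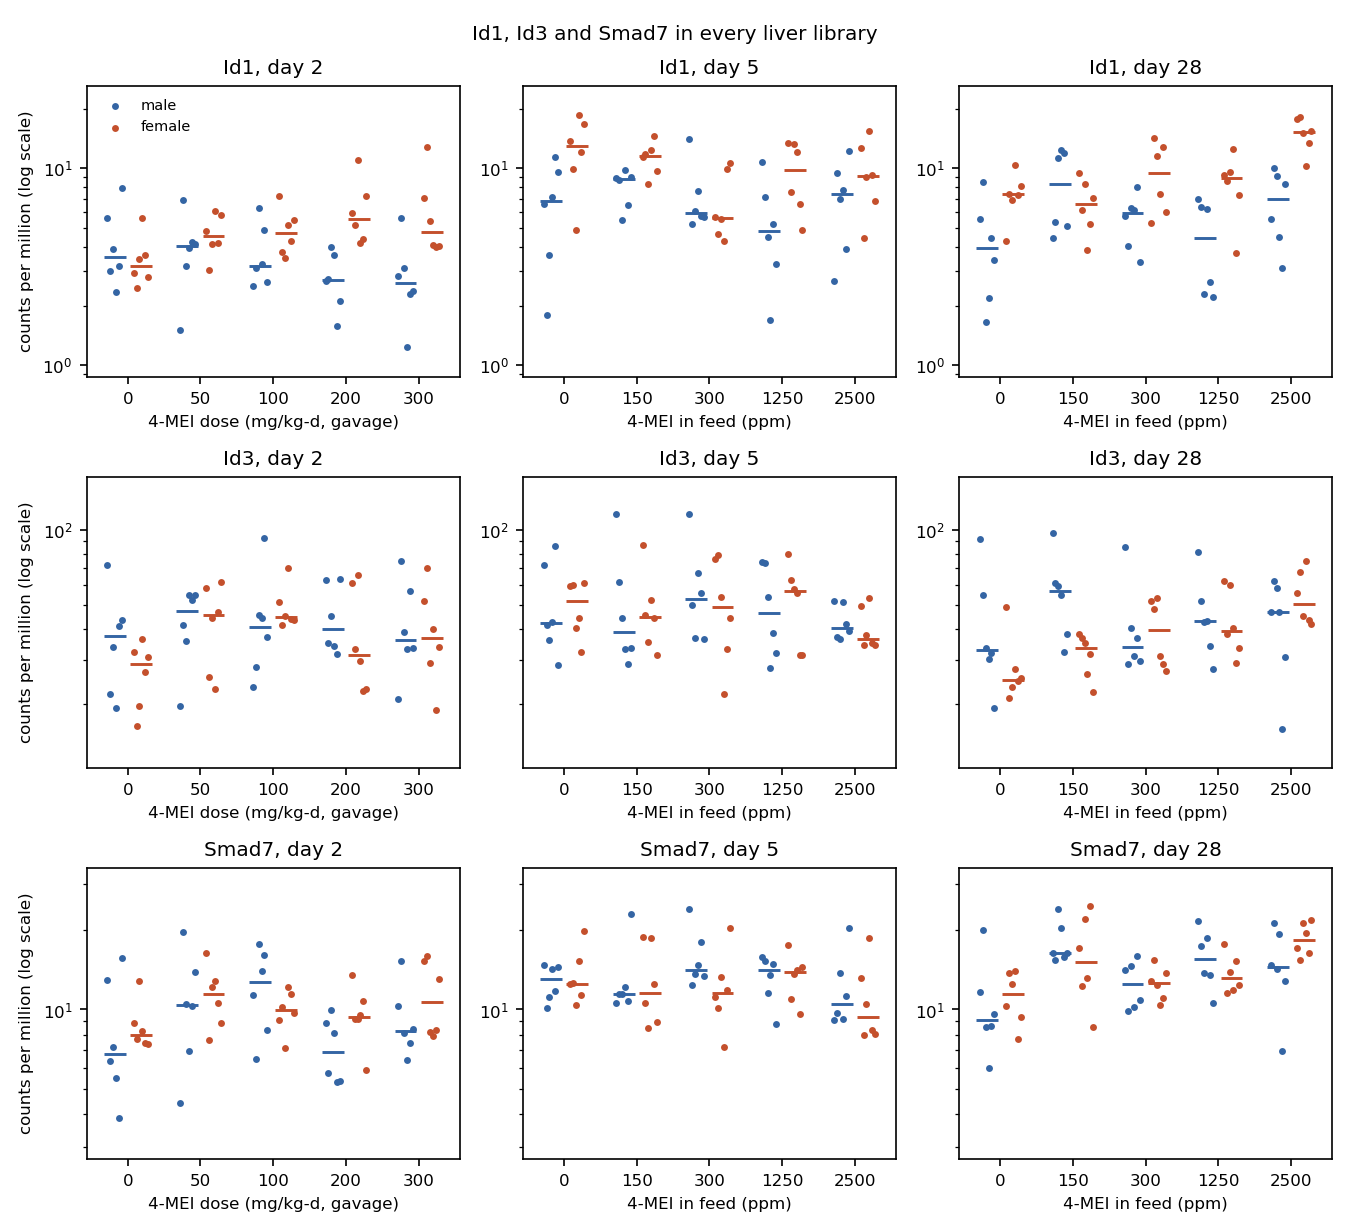
Id1, Id3 and Smad7 in every liver library at days 2, 5 and 28, in CPM on a log axis, by dose and sex. Points are libraries and bars are medians of 6; at day 28 the female libraries at 2500 ppm lie at 10.2 to 18.4 for Id1 and 15.5 to 21.9 for Smad7, while at day 5 doses overlap.

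Between vehicle males and females, Inhbb was the only member called, at day 28. It was 0.789 ± 0.407 CPM in males and 1.62 ± 0.534 CPM in females (SD, n = 6 each), and 5 of 6 females lay above all males. The log2 difference, female minus male, was 1.03 (SE 0.32, adjusted p 0.0155, edgeR's quasi-likelihood test with Benjamini-Hochberg adjustment), beside 22.2% of genes called in that contrast. At days 2 and 5 the Inhbb differences were 0.20 (SE 0.65) and -0.01 (SE 0.33), and 0 members were called, beside 13.7% and 18.2% of genes. An unadjusted p under 0.05 was found for 0 and 2 of 10 (Id1 and Smad6). The share of all genes at that unadjusted threshold is not given here, but it is no smaller than the share called. Nothing is therefore read from the unadjusted counts. Id1 was higher in value in females at day 5 (0.92, SE 0.35, adjusted p 0.0605, same test) and day 28 (0.78, SE 0.34, adjusted p 0.0972), and DESeq2 called Id1 at day 5 and no member at day 2. The day 28 vehicle libraries were the reference of the dose contrasts that led to the choice. The day 28 p-values between the sexes are therefore not independent of that choice. All 7 Kupffer cell markers were higher in females than in males at each day, with summed levels at day 28 of 264 to 344 against 140 to 203 CPM; their part in the Inhbb difference was not tested.

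In lung, 8 of the 10 members were measured well enough to be tested, all but Inhbc and Inhbe. Fst was the only member called at a highest dose, in females at day 2. It was 5.68, 4.41, 6.33, 5.01, 9.44 and 6.52 CPM in vehicle females and 10.2, 13.4, 8.81, 12.9, 13.95 and 9.80 CPM at 300 mg/kg-d, with 5 of 6 treated libraries above all vehicle libraries. The log2 fold change was 0.89 (SE 0.30, adjusted p 0.0493, edgeR's quasi-likelihood test with Benjamini-Hochberg adjustment), beside 8.73% of genes called. Without library 78, whose Xist level went against its label, it was 0.82 and no longer passed (adjusted p 0.10, same test). With no low-count filter the log2 fold change was 0.88 and did not pass either (adjusted p 0.0671, same test). Lung Fst was higher in value at the dose and day at which liver Fst was -0.20 in the same sex. The difference between the tissues was not tested at that dose and day. Inhbb in lung was -0.02 (SE 0.12) there, against the 2.60 of liver. In males at 300 mg/kg-d 0 of 8 passed, beside 0.210% of genes, with 1 at an unadjusted p under 0.05 (Id3, 0.35). At 2500 ppm 0 of 8 passed in males and females of day 5, beside 0% and 0.0319% of genes, and of day 28, beside 0.0128% and 0.121%. At an unadjusted p under 0.05 the count was 2 of 8 in day 28 females and 0 in the other 3 contrasts, and DESeq2 called none in any of the 4. The shares of genes given for these lung contrasts are at the adjusted threshold. The share at the unadjusted threshold is not given here, so nothing is read from the unadjusted lung counts, including that of day 2 males. In day 28 females Id1 (-0.37) and Id3 (-0.30) had unadjusted p of 0.0181 and 0.0147 and adjusted p of 0.311 and 0.294 (edgeR's quasi-likelihood test).

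Within dose groups, Id1 moved with Smad7, Id2 and Id3 from library to library. The log2 CPM of each gene was centred on its group mean, and 36 relations were computed over the 60 liver libraries of each day, with permutation p-values adjusted by Benjamini and Hochberg. For Id1 and Smad7 Pearson's r was 0.65 at day 2, 0.57 at day 5 and 0.48 at day 28 (adjusted permutation p 0.00012, 0.00012 and 0.00411), and Spearman's rho was 0.59, 0.63 and 0.46 (adjusted permutation p 9e-05, 9e-05 and 0.00422). Without the 2 libraries farthest in Id1, and with group means taken again, r was 0.59, 0.62 and 0.52. For Id1 and Id2 r was 0.56, 0.38 and 0.46 (rho 0.55, 0.39 and 0.43), with adjusted permutation p of 0.000216, 0.0136 and 0.00492. For Id1 and Id3 r was 0.58, 0.39 and 0.33 (rho 0.55, 0.40 and 0.37), with adjusted permutation p for r of 0.00024, 0.00816 and 0.0642, the last not past 0.05. At day 28 the adjusted permutation p for rho was 0.0308, so r and rho fell on different sides of the threshold there. The relation with Smad7 was the one with the highest r of these 3 pairs at every day. The libraries of a day share 1 table, so both genes of a pair share each library's depth.

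Id1 also moved with hepcidin at day 2. For Id1 and Hamp r was 0.71 at day 2 (rho 0.76; adjusted permutation p 0.00012 for r and 9e-05 for rho), 0.28 at day 5 (rho 0.26; 0.121 and 0.111) and 0.11 at day 28 (rho 0.12; 0.51 and 0.495). Without the 2 libraries farthest in Id1, r at day 2 was 0.67. Whether the relation differs between days was not tested. For Atoh8, another BMP target in hepatocytes, r was 0.59, 0.13 and 0.37 (rho 0.60, 0.17 and 0.29; adjusted permutation p for r 0.00018, 0.501 and 0.0418). At day 28 the adjusted permutation p for rho with Atoh8 was 0.0931, not past 0.05. The BMP ligand genes did not track Id1: r was 0.05, -0.18 and -0.00 for Bmp2 and 0.25, -0.15 and 0.18 for Bmp6, and the smallest adjusted permutation p of these 6 for r was 0.125. Without library 64 the day 2 r with Id1 was 0.69 for Smad7, 0.63 for Id2, 0.60 for Id3, 0.72 for Hamp and 0.60 for Atoh8, and each still passed. Smad6 gave r of 0.20, 0.27 and 0.30 and did not pass at any day.

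Fst and the activin subunits showed relations of both signs. At day 2, r with Fst was -0.69 for Inhbe (rho -0.39), -0.65 for Inhbc (rho -0.40), -0.53 for Inhba (rho -0.34) and 0.50 for Inhbb (rho 0.34), with adjusted permutation p for r of 0.00492, 0.00766, 0.0364 and 0.0231. Without library 64, with the group mean taken again, r was -0.34, -0.30, -0.19 and 0.23 (rho -0.30, -0.31, -0.23 and 0.28), with adjusted permutation p for r of 0.0375, 0.0826, 0.259 and 0.165, so that 3 of the 4 relations no longer passed. For Inhbe the adjusted permutation p for rho was then 0.074. Without both libraries farthest in Fst, 64 and 43, r was -0.26, -0.26, -0.18 and 0.24. At day 5 only Fst and Inhbc passed, with the opposite sign (r 0.45, rho 0.43, adjusted permutation p for r 0.00547; r 0.41 without the 2 farthest libraries). At day 28 the 4 relations lay between -0.09 and 0.22 and none passed.

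**Figure D5:**
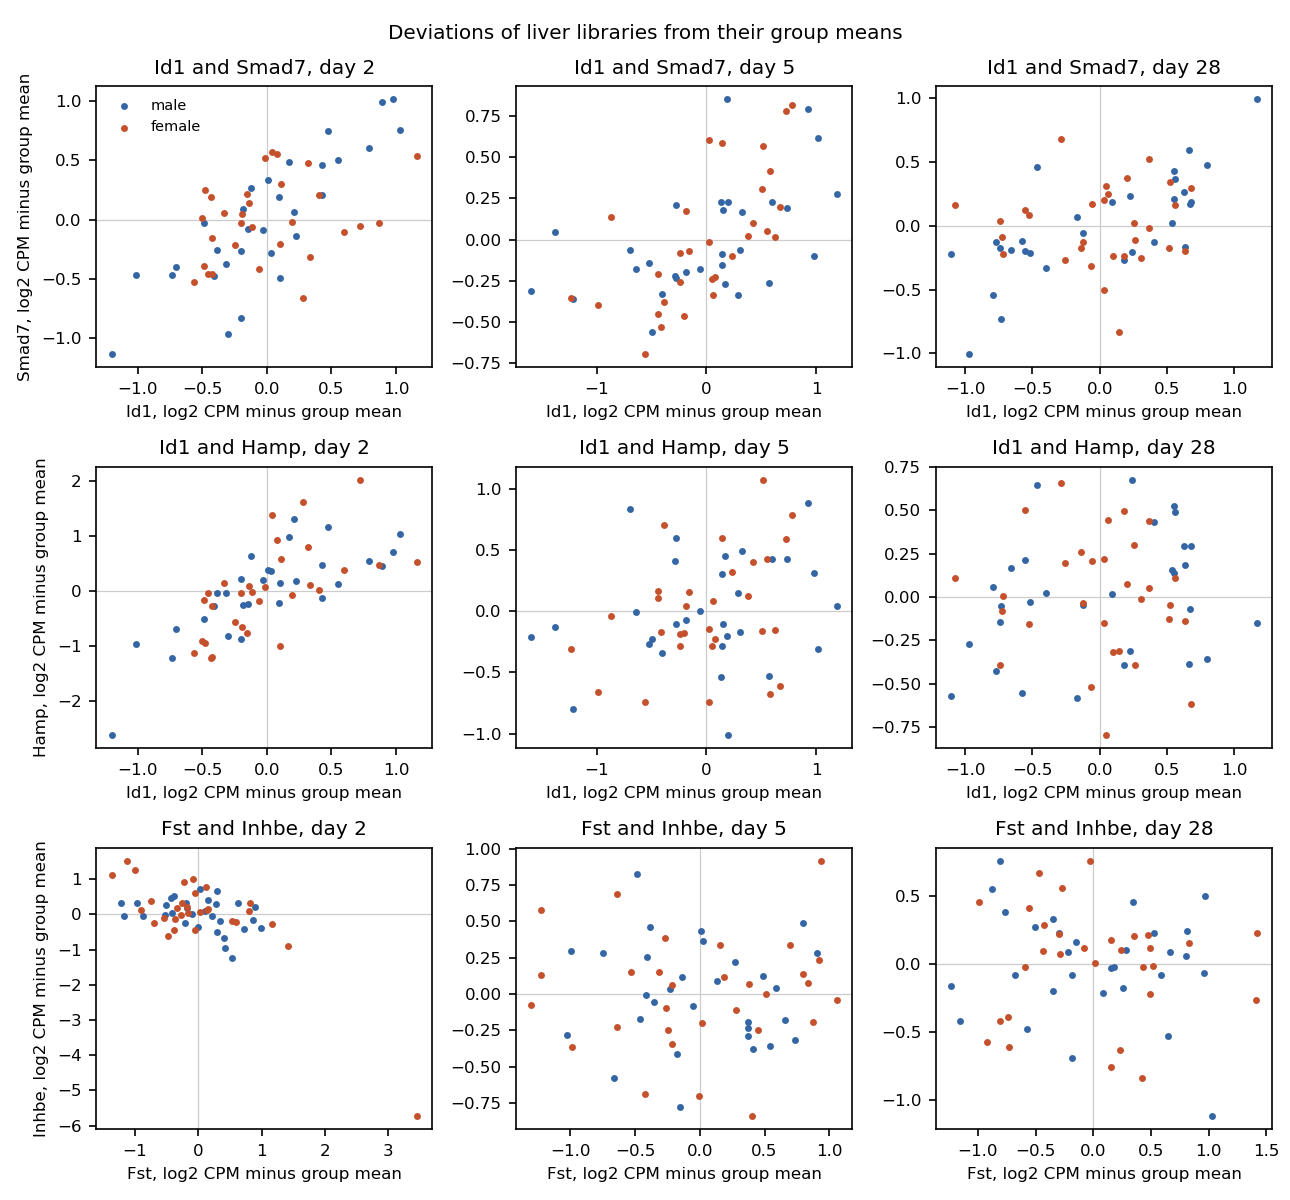
Deviations of single liver libraries from their group means (log2 CPM) for Id1 and Smad7, Id1 and Hamp, and Fst and Inhbe, at days 2, 5 and 28, 60 libraries a panel, coloured by sex. Id1 and Smad7 rise together at each day (r 0.65, 0.57 and 0.48), and the day 2 panel of Fst and Inhbe holds library 64 alone at the lower right.

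Likeness of pattern was measured over the 30 liver group means, each centred on the mean of its day and sex, among 12475 genes. The genes most like Fst were Btg1 (r 0.78), a brake on proliferation, Ndrg1 (0.77), Fbxo4 (0.76), Hsd17b6 (0.75) and Sqstm1 (0.74), an autophagy receptor, and the least like were Sult5a1 (-0.79), Ldhd (-0.79) and Mup15 (-0.75). Those of Id1 were Rnf39 (0.67), Chpf2 (0.66), Rhob (0.65), Cdk9 (0.65) and Zfp639 (0.65), and the least like were Adgra2 (-0.71), Ccnd2 (-0.68) and Lrp2 (-0.64). Without library 64 these 16 values lay between 0.62 and 0.78 for the likest genes and between -0.80 and -0.64 for the least like. Among the members, Id2 (0.51), Smad7 (0.50) and Id3 (0.50) ranked 55, 65 and 68 in likeness to Id1, whereas Fst ranked 1039 (0.29). Predicted gene models were passed over in these ranks. Without library 64, r with Id1 was 0.57 for Id2, 0.52 for Smad7, 0.52 for Id3 and 0.23 for Fst. Their ranks were then 21, 44, 48 and 1543, but with predicted models counted. The ranks with and without the library thus cover different genes and cannot be compared. The group means include those of day 28 that led to the choice of Fst and Id1, and the r values are a description.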

How the data were processed

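RNA was sequenced from liver and lung. Per the labels' protocols, libraries were made from 1.0 to 2.0 µg of total RNA with a stranded mRNA kit. The deposited values are raw counts per gene, made by the authors with Trimmomatic, Bowtie2, SAMtools and HTSeq on mm10, per the submitters' processing notes; no version, annotation or counting strand is stated in the sources used here. Without the strand, reads of overlapping or antisense genes cannot be told apart. 1 unnamed column was not used. Groups came from the titles. Members and lists were chosen with earlier results of these data known. Counts were filtered with filterByExpr, scaled by TMM and fitted with edgeR 4.0.16 (R 4.3.3), a quasi-likelihood test with robust spread and 1 mean a group over the 10 groups of each table, so that the spread comes from all libraries of that tissue and day; p-values were two-sided and adjusted by Benjamini and Hochberg (threshold 0.05) over all genes of a contrast. CPM is counts per 1000000 of the TMM-scaled library; log2 CPM used a prior count of 2. Standard errors are the fold change divided by the root of F. Correlations used 100000 permutations. Exon lengths are from GENCODE M21. All 10 members were described; of other pathway genes, up to 4 a contrast with the smallest adjusted p were named, and the likest 5 and least like 3 genes to Fst and Id1, passing over predicted models. Alternatives were DESeq2 1.42.0, RLE scaling, no filter, only the groups compared, the place of the title number in blocks of 8 as covariate, and libraries left out. Leaving out each vehicle and 300 mg/kg-d female library of day 2, and taking the correlations with the place removed or without library 64, were chosen after seeing the data. Scripts were tested on simulated data. The count over fasting genes is not reported here.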

Additional observations from a re-analysis of the deposited data

Results flagged for a closer look

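In groups of 6, a library was singled out when its gap to its nearest neighbour was large against the range of the group. Fst, Id1 and Inhbb were tested in every liver group, and the other members only in the vehicle and highest dose groups. Of these 174 pairs of a gene and a group, 15 held such a library, in each case the highest of its group. The low Inhba, Inhbc and Inhbe values of library 64 were not among the pairs tested. The limit stands for about 1 in 20 groups if values are normally distributed, which was not tested for CPM. The same libraries also recur across genes, so no excess over chance is read from this count. In day 2 females Fst was 23.7 CPM in library 64 (200 mg/kg-d), 3.18 in vehicle library 11 and 2.91 in library 43 (100 mg/kg-d). Inhbb was 25.2 CPM in library 64, and at day 5 it was 4.00 in female vehicle library 93 and 3.72 in a female library at 2500 ppm. Id1 was 5.61 CPM in day 2 female vehicle library 12, 12.8 in female library 74 (300 mg/kg-d) and 14.2 in a day 5 male library at 300 ppm. Single libraries stood out in Inhba (8.04 CPM, day 2 male vehicle 7), Inhbe (89.01, day 2 female vehicle 9), Id2 (225, day 2 male 66, 300 mg/kg-d), Id3 (48.9, day 28 female vehicle 170), Smad6 (9.41, day 5 male vehicle 84) and Smad7 (12.8, day 2 female vehicle 11). Library 64 was the highest in both Fst and Inhbb, and library 11 in both Fst and Smad7.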

How the results depend on the processing

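Of 747 alternative fold changes, 690 kept their direction and their side of the threshold, 26 kept the direction and lost the call, 7 gained a call and 24 changed sign. The cause of these changes was not tested except where libraries were left out. No paired analysis was possible because the dose groups compared share no title number.

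Several counts of members past the threshold moved. In females at 200 mg/kg-d the count of 2 was 0 without library 64 and 0 with only the groups compared. In liver at day 2, females at 300 mg/kg-d, the count of 3 was 1 to 4 when single libraries were left out. At day 5 DESeq2 called 1 member between vehicle sexes. At day 28 in females the count of 1 was 0 with no low-count filter, 2 with DESeq2, 2 with the place in blocks of 8 as covariate, 2 with only the groups compared, and 0 to 1 with libraries left out. In lung at day 2, females, the count of 1 was 0 with no filter and 0 to 1 with libraries left out. With no filter and with only the groups compared, Fst in day 28 females had a log2 fold change of 1.56 and lost its call. Its value ran from 1.39 to 2.03 with libraries left out, and Id1 was 1.03 with only the groups compared. Nothing is read from the day 28 calls in either direction, since that contrast chose the members.

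The changes of sign were these. Inhbc in day 2 males was 0.0042 with no filter and -0.011 to 0.029 with libraries left out; in day 2 females Inhbc ran from -0.10 to 0.055 and Fst from -0.36 to 0.18. In day 2 males Id3 ran from -0.086 to 0.17 and Smad7 from -0.10 to 0.14. Without library 64, at 200 mg/kg-d, Fst went from a called 1.77 to -0.16, while Inhbc was 0.025, Inhbe 0.0077 and Smad6 0.050. At day 28 Id3 in males ran from -0.16 to 0.36 and Inhbe from -0.031 to 0.20, and in females Inhba ran from -0.29 to 0.15 and Inhbc from -0.13 to 0.042. The correlation of Fst and Inhbe at day 5 was -0.0047 with RLE scaling and -0.0024 with a prior count of 0.5; with the place in blocks of 8 removed, that of Id1 and Bmp2 at day 28 was 0.026 and that of Fst and Inhba -0.12, and that of Id1 and Atoh8 was 0.31 and no longer past the threshold. The calls of Id1 in day 2 females were also lost with no filter (0.83) and with only the groups compared (0.83), and that fit also lost Fst and Inhbb at 200 mg/kg-d. The depth limits Fst and Inhbb most, at 1 to 47 counts in day 2 vehicle libraries.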
